A study of Mus musculus with 4 samples.

Results

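The genes described here serve thiol and peroxide defence in mouse testis, 10 in all: the glutathione peroxidase Gpx4, the thioredoxin reductases Txnrd1 and Txnrd3, the sperm thioredoxins Txndc2 and Txndc8, the peroxiredoxins Prdx1 and Prdx4, the glutathione transferases Gstm1 and Gstm5, and the superoxide dismutase Sod1. They were chosen by name for their place in these pathways and found by exact gene symbol, and all 10 were among the 17924 symbols of the deposited table. The study sequenced total RNA of testis from Tas1r3 knockout (KO) and wild-type (WT) C57BL/6 male mice kept on a normal diet for 18 weeks, with 2 samples of each genotype. Tas1r3 encodes a subunit shared by the sweet and umami taste receptors. The labels do not say which portion of Tas1r3 was removed, how the deletion was made or that each sample is a different mouse. Hence p-values reflect sample-to-sample spread alone, which may be technical. The values are CPM, the reads given to a transcript, scaled so that each library sums to 1000000, and transcript values were summed for each gene.

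Spermatids shed most of their cytoplasm, and mature sperm have membranes rich in polyunsaturated lipids that peroxides attack. Superoxide dismutases turn superoxide into hydrogen peroxide, glutathione peroxidases and peroxiredoxins reduce peroxides, and thioredoxins with their reductases, or glutathione, supply the electrons through pairs of thiols. The same chemistry builds the sperm, because late spermatids lock protamines and tail structures together with disulfide bonds, and several of these genes have forms known from male germ cells.

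The KO libraries were the shallower ones. An estimated 748690 and 597848 reads stood behind the KO libraries, against 1719198 and 1807229 behind the WT libraries, so 1 read was worth 1.34 and 1.67 CPM in KO and 0.582 and 0.553 CPM in WT. Tas1r3 had 1.34 and 0 CPM in KO testes and 13.8 and 20.5 CPM in WT testes, an estimated 1 read against 61. The 10 elongating spermatid markers were protamines, transition proteins, tail proteins, Hspa1l and Tex37. They summed to 26357 and 37400 CPM in KO and 30811 and 30729 CPM in WT, so the 2 KO samples differed more than the 2 WT samples. The 8 spermatocyte markers summed to 1026 and 788 CPM in KO and 771 and 764 CPM in WT. Markers of Sertoli cells (212 and 134 CPM in KO, 166 and 168 CPM in WT) and Leydig cells (1589 and 1650 CPM in KO, 1756 and 1828 CPM in WT) were present in every library. Round spermatid markers summed to 1558 and 1662 CPM in KO and 1554 and 1549 CPM in WT, and spermatogonial markers to 177 and 184 CPM in KO and 168 and 145 CPM in WT. The 5 peritubular myoid markers summed to 80.3 and 79.3 CPM in KO and 105 and 111 CPM in WT. Endothelial markers (41.1 and 25.5 CPM in KO, 29.0 and 43.9 CPM in WT) and macrophage markers (20.7 and 38.6 CPM in KO, 28.5 and 27.6 CPM in WT) were low, and blood cell markers reached 35.8 and 53.9 CPM in KO and 47.8 and 186 CPM in WT. The epididymal marker Crisp1 was found in WT sample 1 alone, and Gpx5, Lcn5 and Lcn8 were not among the symbols of the deposited table. The epididymal sum was 1.34 and 0 CPM in KO and 46.1 and 0 CPM in WT. The 18S ribosomal gene Rn18s had 19348 and 17573 CPM in KO and 13863 and 11948 CPM in WT.

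None of the 10 genes passed the test for a difference between KO and WT testes. The test was limma on log2(CPM + 1) over the 17744 genes that reached 1 CPM in 2 or more libraries, with Benjamini-Hochberg adjustment at 0.05, and all 10 genes entered it. Across all genes it called 0 higher in KO (0% of those tested) and 1 lower (0.00564%). The gene called lower was Ptchd3, named here after its value was seen. The targeted Tas1r3 was thus not called, at an estimated 1 read in KO against 61 in WT. Without adjustment, p was under 0.05 for 243 genes higher in KO (1.37%) and 590 lower (3.33%), and a fit with precision weights called 4 genes higher. Of the 10 defence genes, Gstm1 alone had an unadjusted p under 0.05, where 4.69% of all genes did. In 3 of the 10 (Prdx1, Gstm1 and Txnrd1) both KO samples lay on one side of both WT samples, against 34.4% of all genes tested. Fold changes are given as log2 of KO over WT, computed from CPM + 1, and 6 of the 10 were above 0 and 4 below. Their median was 0.02, beside -0.05 for all genes. In testis as a whole, fewer cells of a type and less RNA per cell cannot be told apart.

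**Figure D1:**
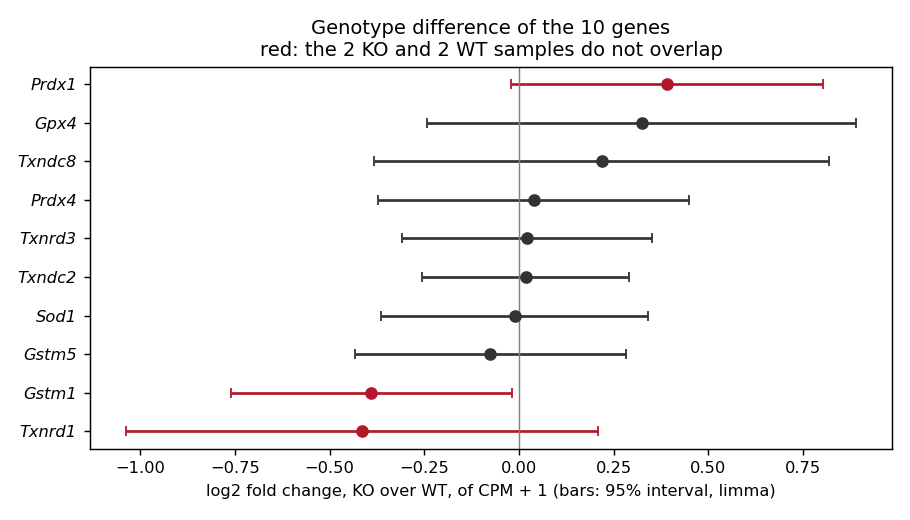
Log2 fold change of CPM + 1, KO over WT, for each of the 10 genes (points), with the 95% interval of the limma fit over all genes (bars); red marks genes whose 2 KO and 2 WT samples do not overlap. All intervals but that of Gstm1 include 0, and no gene passed the adjusted threshold.

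Per kilobase of transcript the 10 genes spanned more than 2 orders of magnitude in every library. Gstm5 was the highest, with 2020 and 2624 CPM per kilobase in KO and 2601 and 2264 in WT, and it ranked 10 among all symbols by the mean of the 4 libraries. Gpx4 followed at rank 24, with 1376 and 2446 CPM per kilobase in KO and 1600 and 1293 in WT. Gstm5 was above Gpx4 in 4 of 4 libraries, although the ranges of the pair overlapped. Txndc2 came next (rank 189; 393 and 415 CPM per kilobase in KO, 381 and 418 in WT). Gstm1 (rank 274; 298 and 223 in KO, 345 and 326 in WT) and Sod1 (rank 339; 229 and 273 in KO, 260 and 244 in WT) overlapped, with Gstm1 the higher in 3 of 4 libraries. Txnrd3 (rank 728; 160 and 126 in KO, 141 and 137 in WT) and Txndc8 (rank 804; 103 and 178 in KO, 126 and 108 in WT) overlapped as well. The Txnrd3 level is the sum over 4 rows that form 2 pairs of identical values, and the tables do not show whether reads were divided within a pair or counted in both. With each pair counted once, Txnrd3 had 79.8 and 63.2 CPM per kilobase in KO and 70.7 and 68.7 in WT, at rank 1471, under Txndc8 and Prdx4 and above Prdx1 in every library. Prdx4 (rank 1169; 81.5 and 102 in KO, 91.0 and 86.7 in WT) and Prdx1 (rank 2331; 49.0 and 49.6 in KO, 39.0 and 35.9 in WT) stood below them, and Txnrd1 was the lowest by far (rank 7488; 7.43 and 5.46 in KO, 8.70 and 8.50 in WT). Apart from the 3 overlapping pairs, and with all Txnrd3 rows summed, neighbours in this order had ranges over the 4 libraries that did not touch. The 10 genes together took 0.495% and 0.633% of the reads in KO and 0.572% and 0.513% in WT.

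**Figure D2:**
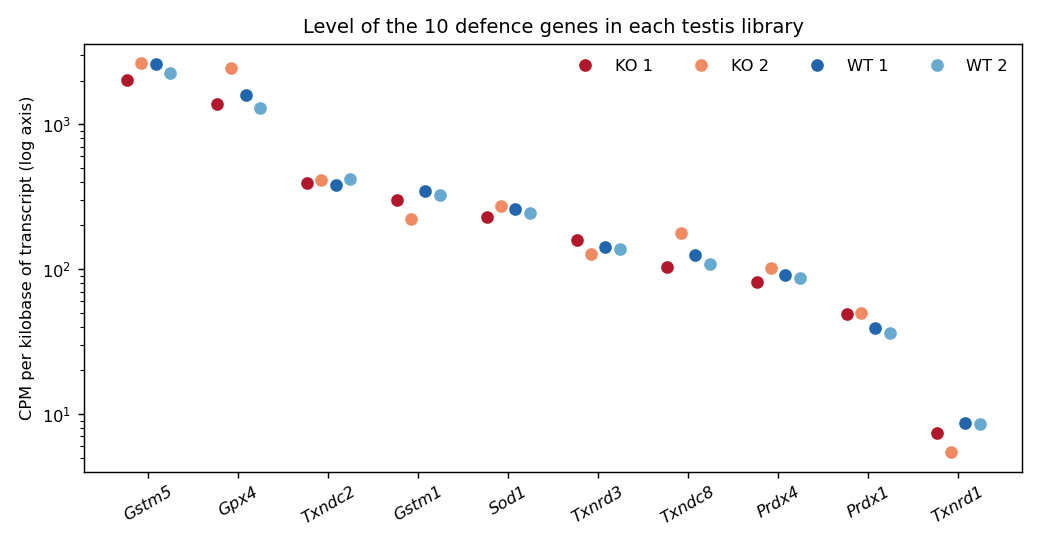
CPM per kilobase of transcript (log axis) of the 10 genes in the 2 KO and 2 WT libraries, one point per library, ordered by mean level, with all Txnrd3 rows summed. The order of the genes is much the same in each library, from Gstm5 at 2020 to 2624 down to Txnrd1 at 5.46 to 8.70, and the widest gaps between KO samples are those of Gpx4 and Txndc8.

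Gpx4 reduces lipid hydroperoxides within membranes, is an oxidised structural protein of the sperm midpiece, and carries selenocysteine, the selenium amino acid that a UGA codon encodes. The gene lies on chromosome 10 from 79889399 to 79892274 on the plus strand (mm39). Txnrd1 and Txnrd3 are selenoproteins as well. The codons around the selenocysteine TGA, in capitals, are shown 5′ to 3′ to set side by side how the reductases carry it as their last codon but one (codon 612 of 613 in Txnrd1, 614 of 615 in Txnrd3), while Gpx4 has it mid-protein, at codon 129 of the 253 in its longest form; they were read from GENCODE M21 transcripts (GRCm38).
Gpx4: aacgtggcctcgcaaTGAggcaaaactgac
Txnrd1: ctccagtctggctgcTGAggt
Txnrd3: actcagaaaggctgcTGAggc
In the same annotation 24 of 21561 genes with a coding sequence (0.111%) have an in-frame TGA read in this way.

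Gpx4 had 1178 and 2064 CPM in KO testes and 1389 and 1116 CPM in WT testes, a mean of 1621 ± 626 CPM in KO and 1253 ± 193 CPM in WT (SD, n = 2 each). KO sample 1 lay between the WT samples and KO sample 2 lay far above all others, so the genotypes overlapped. Its fold change was 0.32 ± 0.24 (SE; limma, Benjamini-Hochberg adjusted p = 0.942), with a 95% interval from 0.846-fold to 1.85-fold. Gpx4 made up 95.7% and 97.5% of the per-kilobase level of the 6 listed glutathione peroxidases in KO and 95.2% and 95.8% in WT. Without KO sample 1 the fit gave 0.73, and without KO sample 2 it gave -0.08, so the sign of the Gpx4 value rested on KO sample 2.

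The table lists 3 Gpx4 transcripts, which differ in where they start. The 882-base transcript has the first start, the 788-base transcript starts 94 bases further on and the 1021-base transcript 446 bases further on. The RefSeq starts on GRCm38 have the same spacing, and there the start codon of the GENCODE form of 197 codons, known as the mitochondrial form, lies 67 bases after the first start and 27 bases before the second. The 788-base transcript therefore lacks that codon. The start codon of the 253-codon form, known from sperm nuclei, lies 38 bases after the third start. Both are shown with ATG in capitals because they tell the transcripts apart.
Gpx4 start codon, 197 codons: gccgagATGagctggggccgtctgagccgc
Gpx4 start codon, 253 codons: gcgggcATGggccgcgcggccgcccgcaag

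The 788-base Gpx4 transcript, which starts past the mitochondrial start codon, had 497 and 1132 CPM in KO and 441 and 419 CPM in WT, so both KO samples were above both WT samples. The 882-base transcript had 508 and 628 CPM in KO and 728 and 507 CPM in WT, and the 1021-base transcript had 173 and 303 CPM in KO and 220 and 191 CPM in WT, with overlap in both. As shares of Gpx4, the 788-base transcript made up 42.2% and 54.9% in KO against 31.7% and 37.5% in WT, and the 882-base transcript 43.1% and 30.4% in KO against 52.4% and 45.4% in WT. The 1021-base transcript made up 14.7% and 14.7% in KO against 15.9% and 17.1% in WT. Each of these shares separated the genotypes, but they are parts of a whole and so not independent. Any separation of 2 samples against 2 gives a two-sided exact permutation p = 0.333, the smallest possible. The percentage of all transcripts whose shares separate was not computed. In the fit over 27539 transcripts, the fold change was 0.80 ± 0.40 (SE; limma, Benjamini-Hochberg adjusted p = 0.818) for the 788-base transcript and -0.11 ± 0.22 (adjusted p = 0.975) for the 882-base one. The transcripts share most of their sequence, so these values depend on how the authors' software divided reads among them.

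**Figure D3:**
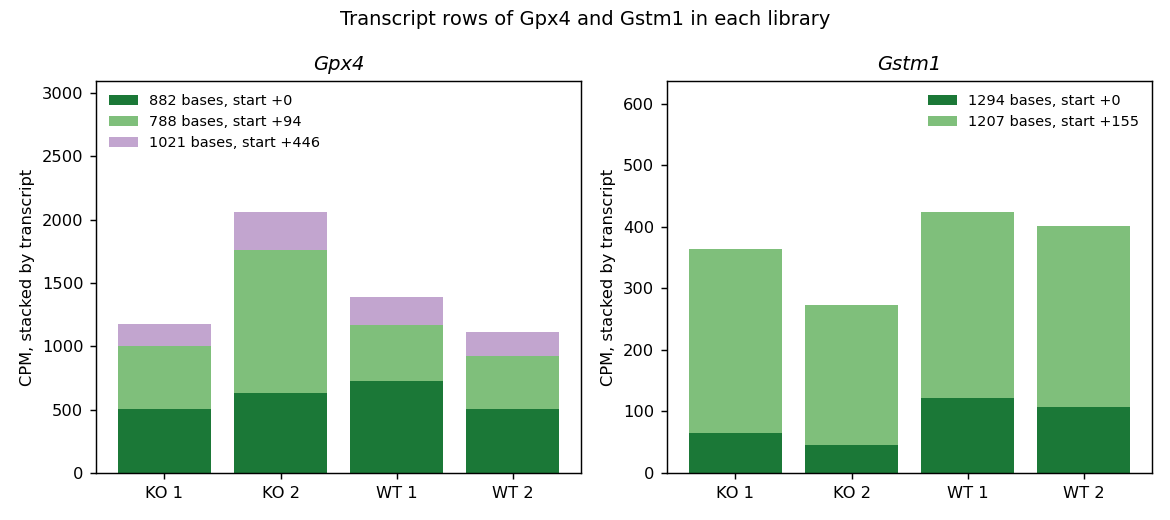
CPM of the listed transcripts of Gpx4 (left) and Gstm1 (right) stacked in each of the 2 KO and 2 WT libraries; the key gives each transcript's length and the distance of its start from the first start, in bases. For Gpx4 the 788-base transcript reaches 1132 CPM in KO sample 2, and for Gstm1 the 1294-base transcript is 65.2 and 45.2 CPM in KO against 121 and 107 CPM in WT.

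Txnrd1, the cytosolic thioredoxin reductase found in most tissues, lies on chromosome 10 from 82669785 to 82733559. It had 24.9 and 18.2 CPM in KO and 29.1 and 28.4 CPM in WT, with each KO sample under each WT sample. The KO samples rest on an estimated 19 and 11 reads and the WT samples on 50 and 51. This gave a fold change of -0.41 ± 0.27 (SE; limma, Benjamini-Hochberg adjusted p = 0.942), with an interval from 0.487-fold to 1.16-fold. With each library left out in turn it ran from -0.63 to -0.20. Its sign could not change there, because the KO and WT samples did not overlap. Its 3310-base transcript held most of the level, with 16.9 and 14.2 CPM in KO and 21.3 and 22.6 CPM in WT.

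Txnrd3, the reductase with an added glutaredoxin domain that acts on both thioredoxin and glutathione and is known mainly from testis, lies on chromosome 6 from 89620970 to 89652512. It had 444 and 358 CPM in KO and 399 and 387 CPM in WT, and the KO samples lay on either side of the WT pair. The fold change was 0.02 ± 0.14 (SE; limma, Benjamini-Hochberg adjusted p = 0.993), with an interval from 0.807-fold to 1.28-fold. Of the 3 reductases, Txnrd3 gave 95.5% and 95.9% of the per-kilobase level in KO and 92.4% and 93.4% in WT. The ratio of Txnrd3 to Txnrd1 per kilobase was 21.5 and 23.2 in KO and 16.2 and 16.2 in WT, higher in both KO samples, with no test possible below p = 0.333 in an exact permutation. These levels rest on rows that form 2 pairs with the same span, length and values (190 and 177 CPM in KO and 194 and 182 CPM in WT for each 2836-base row). If reads were counted in both rows of a pair, they are too high. With each pair counted once, Txnrd3 had 222 and 179 CPM in KO and 199.6 and 193 CPM in WT. Its share of the reductases was then 91.5% and 92.1% in KO and 86.0% and 87.7% in WT, and its ratio to Txnrd1 was 10.7 and 11.6 in KO and 8.12 and 8.08 in WT. The fold change was 0.02 either way. The third reductase, the mitochondrial Txnrd2, was listed at 0 reads in both KO samples against an estimated 13 reads in WT, and the counting interval of the KO over WT ratio reached up to 0.859.

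Txndc2 and Txndc8 are thioredoxins of the male germ line, the first known from the fibrous sheath of the tail and the second from the Golgi and forming acrosome of spermatids. Both have the thioredoxin active site, a pair of cysteines around glycine and proline, and their codons are set beside each other here with the active site in capitals (GENCODE M21, GRCm38; codon 477 of 550 in Txndc2, 58 of 153 in Txndc8).
Txndc2: gccgcttggTGTGGCCCCTGCagaatgatg
Txndc8: gcaaagtggTGTGGCCCCTGCaaaacaatt
The 12 letters of the active site are identical in the pair. This Cys-Gly-Pro-Cys motif occurs in frame in 67 of the 21561 coding sequences (0.311%). Ahead of this domain Txndc2 carries a repeat of 45 bases, and 3 identical consecutive copies begin at codons 192, 207 and 222. The unit is shown because it recurs ahead of the active site in Txndc2, where Txndc8, the shorter protein, has its active site much nearer the start.
Txndc2 repeat unit: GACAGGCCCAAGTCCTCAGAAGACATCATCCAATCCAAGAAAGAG
Neighbouring copies with at least 70% identity lie between codon 169 and codon 332, an outer span of 29.8% of the coding sequence. Not every window inside this span was required to reach 70%. Only 0.0713% of 18242 genes searched had as high an identity at a shift of 45 bases.

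Txndc2, on chromosome 17 from 65944500 to 65949200 (minus strand), had 741 and 774 CPM in KO and 718 and 780.0 CPM in WT. Its fold change was 0.02 ± 0.12 (SE; limma, Benjamini-Hochberg adjusted p = 0.993), and the interval, from 0.837-fold to 1.22-fold, was the narrowest of the 10 genes. Its 1899-base transcript had 699 and 637 CPM in KO and 669 and 649 CPM in WT. The shorter one of 1727 bases had 42.4 and 137 CPM in KO and 49.7 and 131 CPM in WT, a spread that occurred within both genotypes. Per kilobase Txndc2 gave 33.0% and 32.9% in KO, and 32.3% and 35.6% in WT, of the 28 listed thioredoxins, reductases and glutaredoxins, and it ranked 1 among them, with Txnrd3 at rank 2 (rank 4 with each pair of rows counted once), Txndc8 at rank 3, Txnrd1 at rank 23 and the general cytosolic thioredoxin Txn1 at rank 24.

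Txndc8, on chromosome 4 from 57984029 to 58009127 (minus strand), had 64.1 and 110 CPM in KO and 77.9 and 66.9 CPM in WT. KO sample 2 was the highest of the 4 and KO sample 1 the lowest, on an estimated 48 and 66 reads in KO and 134 and 121 in WT. This gave a fold change of 0.22 ± 0.26 (SE; limma, Benjamini-Hochberg adjusted p = 0.947). Without KO sample 1 it was 0.61, and without KO sample 2 it was -0.17. The ratio of Txndc2 to Txndc8 per kilobase was 3.80 and 2.33 in KO and 3.03 and 3.87 in WT.

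Prdx1 and Prdx4 are peroxiredoxins, enzymes in which a cysteine is oxidised by peroxide and then reduced through a disulfide. Prdx1 is cytosolic, and Prdx4 enters the secretory pathway and is known from the acrosome of rodent sperm cells. The codons around the peroxidatic cysteine are shown with the Phe-Val-Cys-Pro motif in capitals (GENCODE M21, GRCm38; motif from codon 50 of 199 in Prdx1 and 125 of 274 in Prdx4). It occurs in frame in 43 of the 21561 coding sequences (0.199%), and both genes have 149 codons after its first one.
Prdx1: gactttactTTTGTGTGTCCCacggagatc
Prdx4: gatttcaccTTTGTGTGTCCAactgaaatc

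Prdx1, on chromosome 4 from 116542796 to 116557198, had 69.4 and 70.2 CPM in KO and 55.3 and 50.9 CPM in WT. Both KO samples were above both WT samples, as for 15.0% of all genes tested, and the gap between genotypes was wider than that within either. The KO samples rest on an estimated 52 and 42 reads and the WT samples on 95 and 92. The KO over WT ratio of pooled reads, scaled by library size, was 1.32, with a counting interval from 1.02 to 1.70. That interval leaves out the spread between samples. It also excluded 1 for Gpx4 (1.19 to 1.32) and Gstm5 (0.902 to 0.984), whose genotypes overlapped. The fold change of Prdx1 was 0.39 ± 0.18 (SE; limma, unadjusted p = 0.0601, Benjamini-Hochberg adjusted p = 0.942), with an interval from 0.985-fold to 1.74-fold. It lay between 0.33 and 0.45 when each library was left out, where a change of sign was impossible without overlap between genotypes. Prdx1 and Txndc8 share chromosome 4 with the targeted Tas1r3, at 39.4 Mb and 97.9 Mb from it.

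Prdx4, on the X chromosome from 154106914 to 154121457 (minus strand), had 80.1 and 100.3 CPM in KO and 89.4 and 85.2 CPM in WT, and the KO samples enclosed the WT samples. Its fold change was 0.04 ± 0.18 (SE; limma, Benjamini-Hochberg adjusted p = 0.988), with an interval from 0.773-fold to 1.37-fold. The ratio of Prdx4 to Prdx1 per kilobase was 1.66 and 2.06 in KO and 2.33 and 2.41 in WT, lower in both KO samples. Of the 7 peroxiredoxins in the table, Prdx6b had the highest level per kilobase, with 37.3% and 37.1% of their sum in KO and 40.4% and 37.5% in WT. Prdx4 came second with 19.1% and 21.9% in KO and 19.9% and 19.4% in WT, and Prdx1 ranked 4 with 11.5% and 10.6% in KO and 8.53% and 8.05% in WT.

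Gstm1 and Gstm5 are mu-class glutathione transferases, which join glutathione to electrophiles such as products of lipid peroxidation. Both lie in one cluster of mu-class genes on chromosome 3, Gstm1 from 107919566 to 107925290 (minus strand) and Gstm5 from 107803170 to 107806002 (plus strand). Genes of this class are close in sequence, so the levels of single members depend on how reads that match several of them were divided.

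Gstm1 had 364 and 272 CPM in KO and 424 and 401 CPM in WT, an estimated 272 and 163 reads in KO and 730 and 725 in WT. Each KO sample lay under each WT sample, as for 19.4% of all genes tested. This gave a fold change of -0.39 ± 0.16 (SE; limma, unadjusted p = 0.0422, Benjamini-Hochberg adjusted p = 0.942), with an interval from 0.590-fold to 0.988-fold. The KO over WT ratio of pooled reads, scaled by library size, was 0.783, with a counting interval from 0.702 to 0.872 that leaves out the spread between samples. Without KO sample 1 the fold change was -0.60, and without KO sample 2 it was -0.18. Its size followed the lower KO sample, while its sign could not change without overlap between genotypes. Of its 2 transcripts, the 1294-base one, with the start further upstream, had 65.2 and 45.2 CPM in KO and 121 and 107 CPM in WT. The 1207-base one, which starts 155 bases downstream, had 299 and 227 CPM in KO and 303 and 294 CPM in WT. The 1294-base transcript was 17.9% and 16.6% of Gstm1 in KO and 28.5% and 26.6% in WT. The exact permutation p = 0.333, the smallest possible, is what any share without overlap gives. In the transcript fit its fold change was -1.05 ± 0.25 (SE; limma, unadjusted p = 0.00927, Benjamini-Hochberg adjusted p = 0.508), and that of the 1207-base one was -0.20 ± 0.17 (adjusted p = 0.931).

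Gstm5, a mu-class member known for high levels in testis and brain, had 1840 and 2391 CPM in KO and 2370 and 2063 CPM in WT, and the KO samples overlapped the WT samples. The fold change was -0.08 ± 0.15 (SE; limma, Benjamini-Hochberg adjusted p = 0.967), with an interval from 0.740-fold to 1.22-fold. Among the 6 mu-class symbols in the table, Gstm5 gave 78.5% and 85.9% of the level per kilobase in KO and 81.7% and 80.9% in WT, and Gstm1 gave 11.6% and 7.30% in KO and 10.8% and 11.7% in WT. Summed over the 6 symbols the level was 2480 and 2886 CPM in KO and 3051 and 2694 CPM in WT, with overlap, and a log2 fold change of the sum of -0.10.

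Sod1, the copper-zinc superoxide dismutase of cytosol and mitochondrial intermembrane space, lies on chromosome 16 from 90017650 to 90023222. It had 146 and 174 CPM in KO and 166 and 155 CPM in WT, with means of 160 ± 20.0 CPM in KO and 160 ± 7.14 CPM in WT (SD, n = 2 each). Its fold change was -0.01 ± 0.15 (SE; limma, Benjamini-Hochberg adjusted p = 0.996), with an interval from 0.776-fold to 1.27-fold. Sod1 gave 84.0% and 86.2% of the per-kilobase level of the 3 dismutases in KO and 84.8% and 84.9% in WT. The ratio of Gpx4 to Sod1 per kilobase was 6.02 and 8.96 in KO and 6.16 and 5.30 in WT.

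For 5 of the 10 genes, with all Txnrd3 rows summed, the 2 KO samples differed beyond counting error. Counting intervals narrow as reads increase, so this count depends on read number. The share of all genes that did so was not computed. Across 8527 genes the chi-square per degree of freedom between the KO samples was 2.51, where counting error alone gives about 1. Between the WT samples it was 1.70 across 12388 genes, so such excess is not particular to these genes. KO sample 2 over KO sample 1 was 1.75 for Gpx4 (95% counting interval 1.61 to 1.91), 1.72 for Txndc8 (1.17 to 2.55) and 1.30 for Gstm5 (1.21 to 1.40). The ratio was 0.806 for Txnrd3 (0.677 to 0.961, or 0.627 to 1.04 with each pair of rows counted once, which includes 1) and 0.749 for Gstm1 (0.614 to 0.915). Gpx4 stood at percentile 98.6 and Txndc8 at 98.3 of this ratio among 4047 genes averaging 50 CPM or more, whose median was 0.956 and whose 10th and 90th percentiles were 0.705 and 1.33. WT sample 2 over WT sample 1 ran from 0.804 (Gpx4) to 1.09 (Txndc2) over the 10 genes, and differed beyond counting error for 3 of them (Gpx4, Gstm5 and Txndc2). Of the elongating spermatid markers, 8 of 10 were higher in KO sample 2 than in KO sample 1, with a median ratio of 1.23. Tnp2 (1.80), Tnp1 (1.78) and Prm1 (1.64) had ratios near those of Gpx4 and Txndc8, and the other 7 ran from 0.905 for Hspa1l to 1.26 for Prm2. All 8 spermatocyte markers were lower in KO sample 2, with a median ratio of 0.799. Of the round spermatid markers, 5 of 8 were higher. The counting interval excluded 1 for 7 of the 10 elongating spermatid, 2 of the 8 round spermatid and 1 of the 8 spermatocyte markers. How many of all genes were higher or lower in KO sample 2 was not computed. The part of cell composition in the levels of these genes was not tested.

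**Figure D4:**
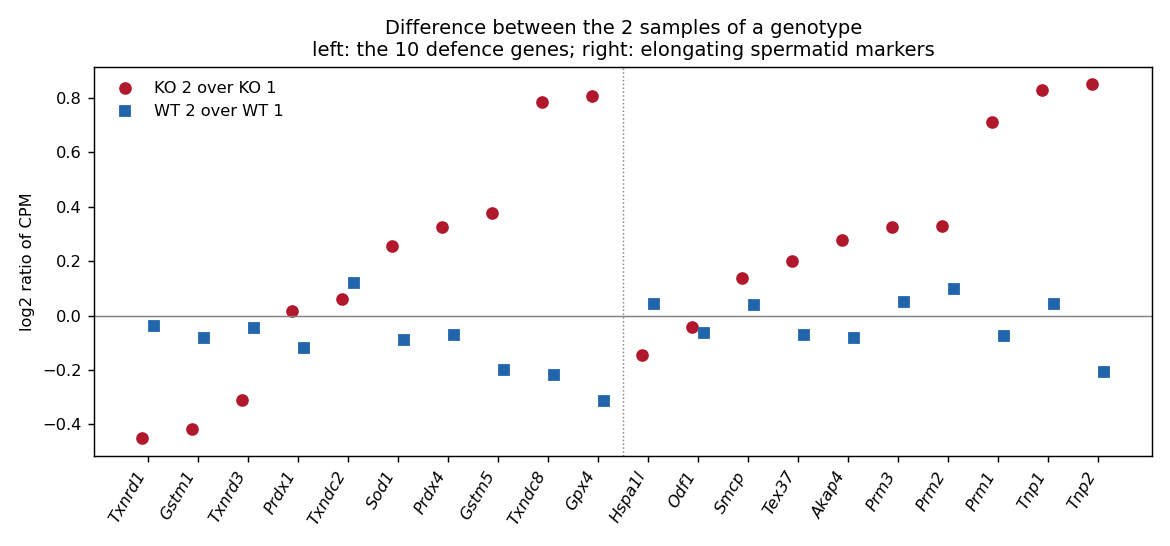
Log2 ratio of CPM between the samples of one genotype, KO sample 2 over KO sample 1 (red circles) and WT sample 2 over WT sample 1 (blue squares), for the 10 defence genes (left) and the 10 elongating spermatid markers (right). Red points run from Txnrd1 at 0.732-fold to Gpx4 at 1.75-fold on the left and up to Tnp2 at 1.80-fold on the right, while the blue squares stay between 0.804-fold and 1.09-fold.

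The wider pathway was read from 12 lists of 143 genes in all, of which 134, the 10 included, were tested. None of the 134 passed the limma test after Benjamini-Hochberg adjustment, under which 0.00564% of all genes did. Without adjustment 0 were higher in KO and 9 lower, where 1.37% and 3.33% of all genes were. In 17 both KO samples lay above both WT samples and in 26 below, against 15.0% above and 19.4% below for all genes. Together these made 32.1% of the 134 and 34.4% of all genes. Their median fold change was -0.05, the same as for all genes, also with Txnrd2 and Mgst2 set to the upper limits of their counting intervals. The 9 were Gpx3, Txnrd2, Gstm1, Mgst2, Mgst3, Idh2, Eefsec, Pstk and Aifm2, and most of them rest on few KO reads.

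Among the other peroxidases, Gpx3, the secreted plasma form, had 8.91 and 11.2 CPM in KO and 32.2 and 14.8 CPM in WT, with the WT samples far apart (fold change -1.06 ± 0.42, limma unadjusted p = 0.0345). WT sample 1, the higher, was also the library with the epididymal marker Crisp1, and a link was not tested. Gpx1, the general cytosolic form, had 39.2 and 28.3 CPM in KO and 27.8 and 30.3 CPM in WT. The thioredoxin list had 6 genes above and 6 below of 28, with a median of 0.05. That is 42.9% without overlap, against 34.4% of all genes tested. In this list Txndc9 had 79.4 and 71.9 CPM in KO and 57.6 and 57.0 CPM in WT (0.39 ± 0.18, limma unadjusted p = 0.0554). Nucleoredoxin (Nxn) had 178 and 172 CPM in KO and 165 and 159 CPM in WT. Of the peroxiredoxin list, Prdx6b, a relative of the one-cysteine Prdx6, had 460 and 500 CPM in KO and 533 and 483 CPM in WT, and Srxn1, which repairs over-oxidised peroxiredoxins, had 41.3 and 25.1 CPM in KO and 53.9 and 33.7 CPM in WT. In that list of 8 genes, Prdx1 was the gene whose genotypes did not overlap, or 12.5%, against 34.4% of all genes tested. Sod2, the mitochondrial dismutase, had 68.1 and 69.7 CPM in KO and 77.2 and 84.1 CPM in WT, and Ccs, the chaperone that loads copper into Sod1, had 41.4 and 40.1 CPM in KO and 32.0 and 38.7 CPM in WT, each without overlap. Neither passed the limma test with Benjamini-Hochberg adjustment (adjusted p = 0.942 for both).

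Glutathione transferases, 22 of which were tested, had 3 members above, 5 below and a median of -0.06. That is 36.4% without overlap, against 34.4% of all genes. The theta-class Gstt4 had 252 and 393 CPM in KO and 299 and 282 CPM in WT. The omega-class Gsto2 had 200 and 221 CPM in KO and 217 and 217 CPM in WT. The microsomal Mgst3 had 5.34 and 3.34 CPM in KO and 10.5 and 10.3 CPM in WT, on an estimated 6 and 37 reads. Mgst2 was at 0 reads in KO against 9 in WT, and the counting interval of the KO over WT ratio reached up to 1.33, so a difference was not detectable at this depth. The glutathione enzymes, such as Oplah (157 and 131 CPM in KO, 137 and 174 CPM in WT), had 1 member above and 1 below of 12. That is 16.7% without overlap, against 34.4% of all genes.

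Enzymes that supply NADPH had 0 members above and 3 below of 9, or 33.3% without overlap, against 34.4% of all genes. Idh2, the mitochondrial isocitrate dehydrogenase, had 5.58 and 5.63 CPM in KO and 11.3 and 12.2 CPM in WT (fold change -0.95 ± 0.40, limma unadjusted p = 0.0468), on an estimated 8 KO reads. Idh1, its cytosolic relative, had 30.5 and 11.7 CPM in KO and 34.5 and 31.5 CPM in WT. Malic enzyme Me1, the most abundant of the list, had 271 and 248 CPM in KO and 281 and 243 CPM in WT.

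Selenoprotein synthesis, on which Gpx4, Txnrd1 and Txnrd3 depend, had 2 members above and 4 below of 10, where 15.0% of all genes were above and 19.4% below. Eefsec, the elongation factor that brings selenocysteine to the ribosome, had 49.4 and 61.9 CPM in KO and 76.1 and 75.1 CPM in WT (fold change -0.44 ± 0.19, limma unadjusted p = 0.0482). Pstk, the kinase that prepares selenocysteine tRNA, had 2.67 and 1.67 CPM in KO and 9.75 and 6.10 CPM in WT, 3 reads against 28, and a ratio of 0.281 with a counting interval from 0.0546 to 0.908. Sephs2, which makes the selenium donor, had 212 and 187 CPM in KO and 187 and 198 CPM in WT. Neither Eefsec nor Pstk passed adjustment (limma, Benjamini-Hochberg adjusted p = 0.942 for both).

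The Nrf2 list, the regulators and targets of the oxidative stress response, had 1 member above and 1 below of 11. That is 18.2% without overlap, against 34.4% of all genes. Nfe2l2, which encodes Nrf2, had 17.9 and 15.1 CPM in KO and 11.8 and 14.0 CPM in WT, and Keap1, its inhibitor, had 77.5 and 98.4 CPM in KO and 81.8 and 89.7 CPM in WT. The haem oxygenase Hmox2 had 576 and 768 CPM in KO and 723 and 658 CPM in WT. Among genes of lipid peroxidation and iron, Aifm2, which limits lipid peroxidation apart from Gpx4, had 22.7 and 26.5 CPM in KO and 38.1 and 38.1 CPM in WT (fold change -0.62 ± 0.23, limma unadjusted p = 0.0290). The ferritin subunit Fth1 had 172 and 144 CPM in KO and 192 and 180 CPM in WT. Of the genes that form disulfides in the endoplasmic reticulum, Pdia3 had 326 and 360 CPM in KO and 309 and 265 CPM in WT, and the testis form Pdilt had 177 and 196 CPM in KO and 200.1 and 185 CPM in WT.

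**Figure D5:**
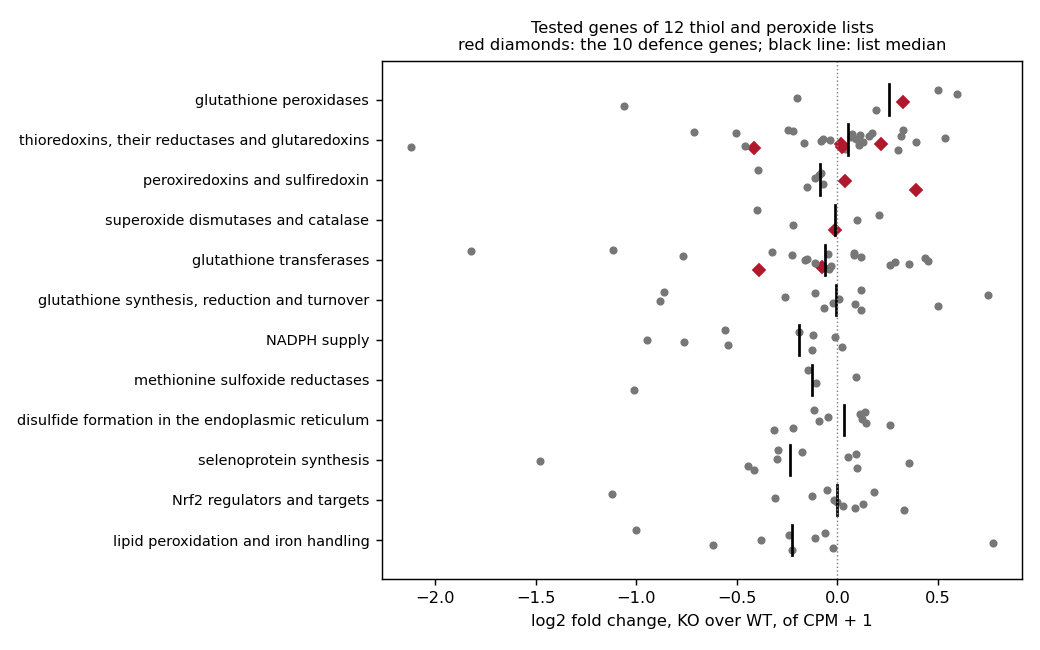
Log2 fold change of CPM + 1, KO over WT, of each tested gene in the 12 thiol and peroxide lists (grey circles), with the 10 defence genes as red diamonds and the list median as a black line. List medians lie between -0.24 and 0.26, no gene passed the adjusted threshold, and the points far to the left are genes of few reads, such as Txnrd2 with 0 KO reads.

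RefSeq promoters (GRCm38.p6, 250 bases before to 50 after each start) were available for 17 starts of the 10 genes. The letters TGACNNNGC, the core that Nrf2 is known to bind, occur on either strand in 12.4% of all 32851 promoters and in 5 of the 17, at Gstm5, Prdx1, Txnrd1, Sod1 and Txndc2. The letters TGACGT, part of the site known for CREB and CREM proteins, occur in 7.51% of all promoters and in 3 of the 17, in a pair of overlapping Gpx4 windows and at Sod1. The full palindrome TGACGTCA, which overlaps TGACGT, occurs in 1.79% of all promoters and in 0 of the 17. These matches describe letters in a window and say nothing of binding in these samples.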

How the data were processed

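RNA libraries were built with an Ion Torrent kit for total RNA, per the labels' protocols. STAR, Partek and mm39 are named in the submitters' processing notes, without versions or settings. The authors deposited CPM per RefSeq transcript (29342 rows), scaled to 1000000 per library. Series and sample tables agreed in 4 of 4 columns. Genotypes were taken from the titles. Transcript rows were summed per symbol, and levels per kilobase divided each row by its length first.

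The most frequent low values gave the CPM of 1 read. Values of 47.8%, 45.2% (KO), 21.0% and 21.2% (WT) of genes came out whole within 0.02 reads, so whole reads were not recovered and read numbers are rounded estimates. The 95% intervals and the floor of 3 reads per library cover only counting error. The test, limma 3.58.1 with a mean trend, ran in R 4.3.3. It took log2 of CPM plus a pseudocount of 1, a scale that understates changes of low genes, for genes reaching 1 CPM in 2 or more libraries. P-values were two-sided and adjusted by the Benjamini-Hochberg method at 0.05. The same fit was run on transcript rows. Counting identical Txnrd3 rows once was an alternative chosen after seeing the data. Alternatives changed the pseudocount, filter, scaling, trend, weights and block, or left out 1 library. The fit was checked on simulated data with the same assumed spread between samples in both genotypes. It called 4.93% of 1.5-fold changes, 33.4% of 2-fold changes and 85.9% of 4-fold changes. In that setting most changes of 2-fold or less were missed. The real KO samples differed more than the WT samples (chi-square per degree of freedom 2.51 against 1.70). These rates may therefore not hold for these data or for single genes. Python 3.11.15 with pandas 2.3.3, numpy 2.4.6, scipy 1.17.1 and matplotlib 3.10.9 handled tables, sequences and figures.

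Beside the 10 genes, the rule for naming took, from each of 12 lists, the 2 genes with the highest mean CPM and the 2 with the smallest p, of which a selection is given. The 10 genes, the lists and the markers were chosen with earlier results of these data known. Coordinates are those of the deposited tables (mm39). Sequences come from GRCm38 annotation, and no coordinates were converted between builds. Replicate numbers were not used as pairs in the main fit.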

Additional observations from a re-analysis of the deposited data

How the results depend on the processing

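Under 9 alternatives that kept all 4 libraries (pseudocount of 0.1 or 5, no filter, a minimum of 5 CPM, trimmed means, quantiles, no trend, precision weights, replicate block), none of the 10 genes was called and none changed sign; Gstm1 no longer had an unadjusted p under 0.05 with a pseudocount of 0.1 or without the trend. Over all genes, 1 was called lower at first, and 0 with a pseudocount of 0.1 or without the trend. Precision weights called 4 higher. Of genes with an unadjusted p under 0.05, 29.2% were higher in KO, 45.8% after quantile normalization and 57.6% with precision weights. The main fit did not treat the numbers in the labels as pairs. The correlation of same-numbered deviations was -0.00539. With a lone difference per genotype, it cannot show whether samples were handled in pairs. With the replicate block 6 genes were called higher and 17 lower.

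Leaving out 1 library leaves that genotype with a lone sample, assumed to vary like the other genotype. All genes called higher then ran from 1 to 434 and lower from 3 to 1029, with the highest counts without KO sample 1 (434 and 1029) and without KO sample 2 (146 and 510). Of the 10 genes, 0 to 2 were called higher and 0 to 1 lower, all without KO sample 1 (Gpx4, Txndc8 and Gstm1). Their median ran from -0.13 (without KO sample 2) to 0.11 (without KO sample 1). The fold change ran from -0.0799 to 0.728 for Gpx4, -0.134 to 0.175 for Txnrd3, -0.042 to 0.0768 for Txndc2, -0.169 to 0.606 for Txndc8, -0.122 to 0.199 for Prdx4, -0.265 to 0.113 for Gstm5 and -0.139 to 0.116 for Sod1, so each of these 7 changed sign when 1 or more of the libraries was left out. Read per transcript, the sign also differed from that of the sum for the 2836-base rows of Txnrd3 (-0.0343), the 882-base row of Gpx4 (-0.105) and the 1727-base row of Txndc2 (-0.0768). The cause was not tested. Prdx1, Gstm1 and Txnrd1 kept their sign in every alternative run. With 1 library left out this was fixed in advance, as the KO and WT samples of these genes did not overlap. At these depths the KO libraries limit precision: 3 reads are 4.01 and 5.02 CPM in KO.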
